A study of Danio rerio with 10 samples.

Results

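The genes described here are markers of glia, of myelin and of Notch signalling, measured in whole wild-type zebrafish embryos raised in thallium nitrate (TlNO3). The rule was by name: 45 zebrafish genes were listed for their known roles. The rule itself uses no measured value, but the list was drawn up with earlier results of these data known. A row was found for 38 of the 45 names. Because the symbol table used here gives paralog pairs (a and b copies) a single symbol, those 38 names correspond to 45 gene rows out of 32057 genes measured in every library. The pairs NOTCH1, FABP7, SLC1A3, SLC1A2, GLUL, VIM, SOX9 and SOX8 are therefore told apart by Ensembl ID only, and a copy that was not listed may be among them. No row was found under the names her6, her9, dla, cx43, aqp1a.1 and nkx2.2a. The row whose symbol reads as dld was set aside, because that symbol is also the human one for an enzyme of energy metabolism. The genes without a row may have been measured under human-style symbols, which were read apart from the set. All 45 rows passed the filter on low counts.

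Embryos were kept in 0, 200 or 800 ppb TlNO3 from 6 to 48 hours post fertilisation (hpf), with 5, 3 and 2 libraries of total RNA. Replicate 1 of 0 ppb and of 200 ppb was built at a hospital sequencing core, and a commercial provider made the remaining 8 libraries. Nothing in the labels states the clutch of a replicate or how many embryos were pooled, so the p-values below measure the spread between these libraries, which may be technical. Each library held 12.1 to 48.3 megareads. The libraries were placed in 4 batches, with the hospital core's pair set as batch 1 by its site. Comparing the deposited count files with a second deposited table divided the provider's 8 libraries into 3 further batches. These were replicate 2 of 0 and 200 ppb, replicate 3 of 0 and 200 ppb, and 0 ppb replicates 4 and 5 with both 800 ppb libraries. The number of provider batches was set before clustering, with the batches already known from an earlier look at these data. The labels name the site but not these batches. Levels are in CPM, read counts scaled to library size with TMM-scaled totals, which allow comparison of a gene across libraries but not of genes of different length. Between the sites this is less sure. For some genes, id1 and her4.3 among them, the provider's levels differed between the count files and the second table, as given below. RNA came from the whole embryo, so fewer cells of a type and less RNA per cell cannot be told apart.

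Notch receptors are cell-surface proteins that, once bound by Delta or Jagged ligands on a neighbouring cell, release an intracellular fragment that switches on transcriptional repressors of the hairy/Enhancer-of-split type, the her and hey genes of fish. In the embryonic brain and spinal cord these repressors hold progenitors back from becoming neurons. The progenitors, the radial glia, also carry out in fish much of what astrocytes do in mammals. Oligodendrocytes in the central nervous system and Schwann cells in peripheral nerves wrap axons in myelin, and at the end of this exposure myelination has barely begun in zebrafish.

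No gene of the set passed the test at either dose with the site or the batch of the libraries in the model. In the model with the site of library construction as a term (edgeR quasi-likelihood F-test, Benjamini-Hochberg adjusted p under 0.05 over 20867 genes), 0 of 45 rows were called at 200 ppb against 0 ppb, where 0% of all genes were called. At 800 ppb against 0 ppb the count was 0 of 45, where 0.0431% of all genes were called, and in the contrast of 800 ppb with 200 ppb it was 0 of 45, where 0% were. With library batch in place of site, the count was again 0 of 45 in each comparison, where 0%, 0.311% and 0.0767% of all genes were called. DESeq2 with the site term likewise called 0 members, where 0%, 0.206% and 0.139% of all genes were called. So did limma on the second deposited table, where 0%, 0.0369% and 0% of its genes were called with the site term. With the batch term these shares were 0%, 0.343% and 0.0369%. A single alternative differed: with the replicate number as a block beside the site term, 14 of 45 rows were called at 800 ppb against 0 ppb and 17 of 45 at 800 ppb against 200 ppb, where 31.6% and 32.3% of all genes were called. In that fit replicate 1 of 800 ppb was the only provider library of its block, so the site term fitted it exactly. The fit's 800 ppb values therefore rest on replicate 2 of 800 ppb alone, set beside replicate 2 of 0 and 200 ppb from another batch.

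At an unadjusted p under 0.05 the site model gave 1 row at 200 ppb, her4.2 (2.22% of the set, against 0.575% of all genes), and 3 rows at 800 ppb (6.67%, against 4.76%), which were id1, FABP7 ENSDARG00000007697 and SLC1A3 ENSDARG00000043148. The batch model gave 2 rows at 200 ppb, her4.2 and her4.3 (4.44%, against 1.1%), and 4 at 800 ppb (8.89%, against 7.32%), which were her4.2, her15.1, FABP7 ENSDARG00000007697 and SOX8 ENSDARG00000037782. The smallest adjusted p of any member was 0.93 at 800 ppb in the site model and 0.428, for her4.2, in the batch model. In simulated counts with the sizes of these libraries, 200 genes were changed among 20411 to 20453 tested. The site model recovered 80.5% of genes changed 2-fold at 200 ppb and 49% at 800 ppb, and the batch model recovered 100% and 99%. Counts were simulated apart for each model at the spread that model had estimated, a common dispersion of 0.0419 (site) and 0.00757 (batch). The 2 models were thus not compared on the same counts, and the batch model's counts had the smaller spread. The changed genes averaged more than 100 reads per library. Within a simulation all genes had the same spread, and no site or batch difference was simulated. These shares therefore do not hold for rows with fewer reads or for changes smaller than 2-fold.

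**Figure D1:**
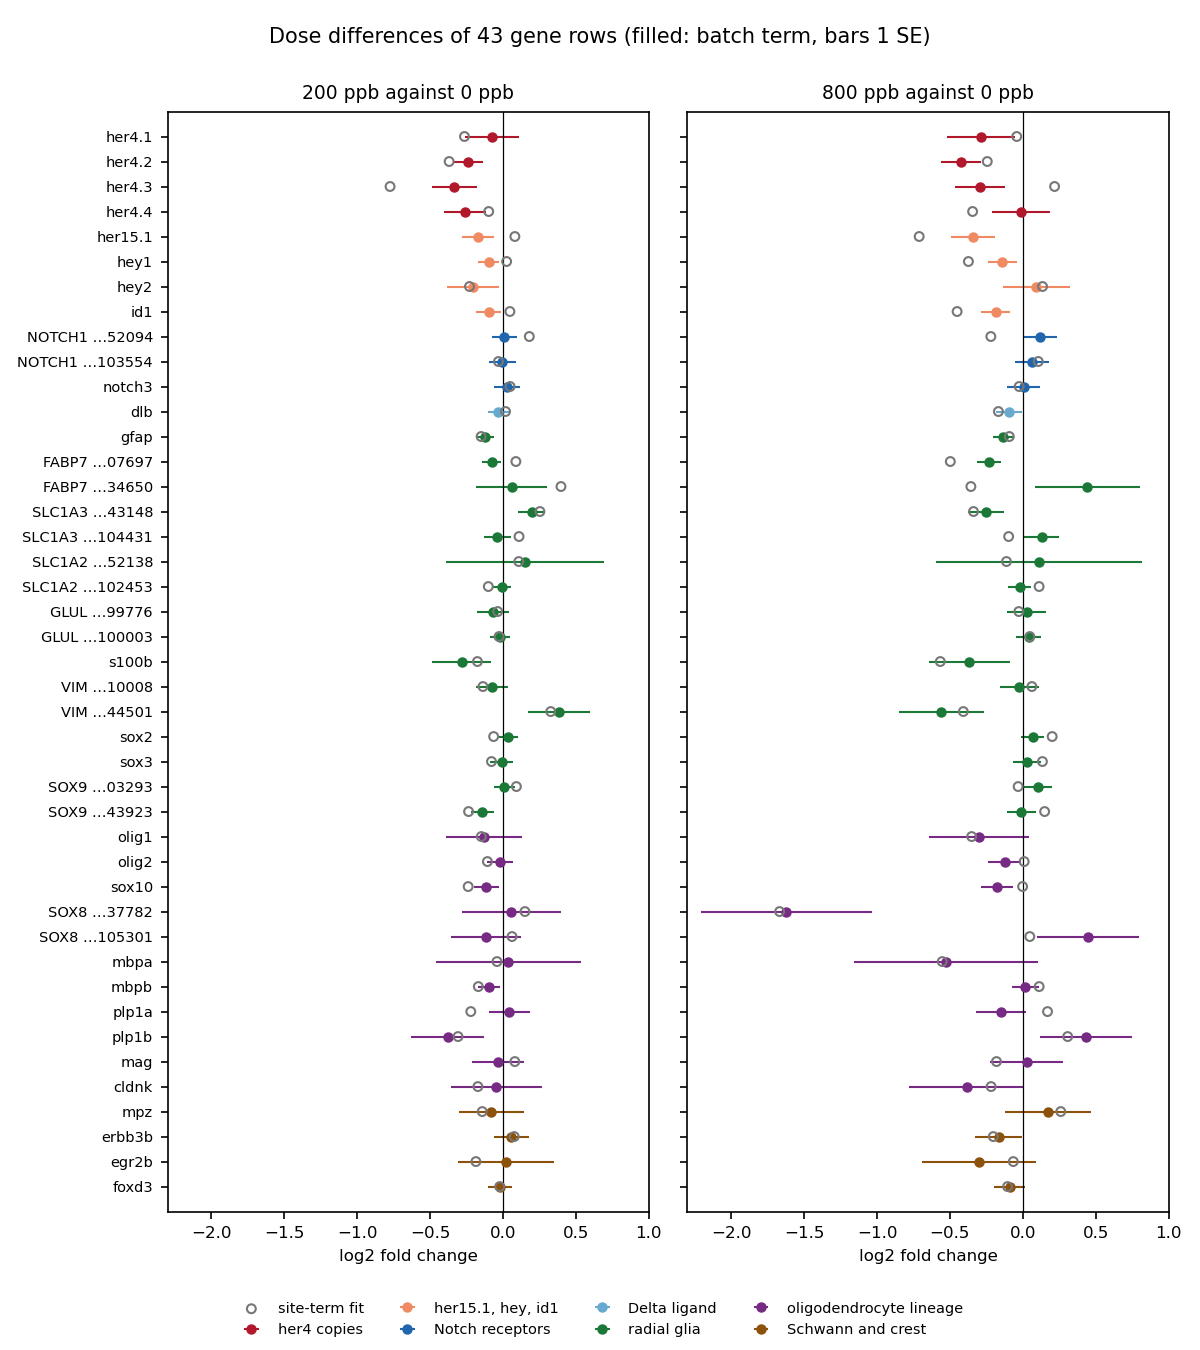
Log2 fold change of 43 gene rows at 200 ppb against 0 ppb (left) and at 800 ppb against 0 ppb (right), grouped by role. Filled points are from the model with library batch, with bars of 1 standard error, and open circles from the model with site; at 200 ppb every filled point lies within 0.5 of 0, and at 800 ppb 40 of 43 do.

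Fold changes were small and slightly more often below 0 than above. With the batch term, 31 of 45 rows were lower at 200 ppb than at 0 ppb (50.6% of all genes tested were), with a median log2 fold change of -0.04 against 0.00 for all genes. At 800 ppb 27 of 45 were lower (49.5% of all genes), with a median of -0.09 against 0.00. The site model gave 28 of 45 at 200 ppb (50.9% of all genes) and 29 of 45 at 800 ppb (52.0% of all genes). In the batch model all 45 rows lay within 0.5 of 0 on the log2 scale at 200 ppb and 42 of 45 at 800 ppb. For each of the 45 rows the range over the 5 libraries of 0 ppb exceeded both dose differences, and for 26 rows the highest 0 ppb library was at least 2-fold above the lowest. Those libraries came from both sites and every batch, whereas the dose differences were fitted with a site or batch term. The range therefore includes site and batch differences, and cannot measure the noise in the dose comparison.

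Directions were also read library by library within batches, without a test. At 200 ppb, 11 of 45 rows were lower than 0 ppb in 3 of 3 same-numbered pairs (12.4% of all genes were) and 4 were higher in all 3 (11.6%). Both 800 ppb libraries lay below both 0 ppb libraries of their batch for 11 rows (16.3% of all genes) and above them for 4 (16.5%). The rows below on both counts were her4.2, her4.3, hey1 and gfap, 4 of 45 where 2.47% of all genes met both conditions, and no row was above on both, where 2.23% were. In the second deposited table, 4 of 44 rows met the same conditions (2.4% of its genes): her4.2, her4.3 and gfap again, and s100b in place of hey1.

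The her4 genes are the most direct readout of Notch activity in the set: they are fish counterparts of mammalian HES5, encode repressors and are strongly dependent on Notch in the embryonic nervous system. They lie in a tandem cluster, and in the RefSeq annotation of GRCz12tu, a later build than that of the files, her4.1 overlaps her4.2, with her4.3 and her4.4 next in order. Reads of near-identical copies may have been divided among them by the counting, so their sum was also taken. That annotation lists her4.5 directly after her4.4. It was not part of the sum, so a division of reads with that copy may still affect it. The summed level of her4.1 (ENSDARG00000056732), her4.2 (ENSDARG00000094426), her4.3 (ENSDARG00000070770) and her4.4 (ENSDARG00000009822) was 26.9, 38.7 and 37.2 CPM in 200 ppb replicates 1, 2 and 3, against 30.6, 42.3 and 48.0 CPM in 0 ppb replicates 1, 2 and 3. It was 43.8 and 48.5 CPM in the 800 ppb libraries, against 58.3 and 56.0 CPM in 0 ppb replicates 4 and 5. Within every batch the exposed libraries were the lower ones. Over all batches the groups overlapped, and the hospital core's 0 ppb library was below all provider libraries.

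As ratios, the 200 ppb sum was 0.879, 0.916 and 0.776 of its same-numbered 0 ppb library, and the 800 ppb sums were 0.768 and 0.849 of the mean of 0 ppb replicates 4 and 5. The fitted log2 fold change of the sum at 200 ppb was -0.22 ± 0.08 (SE) with the batch term and -0.36 ± 0.13 with the site term. For 800 ppb against 0 ppb the sum lay at -0.31 ± 0.10 with the batch term and -0.12 ± 0.15 with the site term, and at 0.15 under the replicate block with the site term. Because the copies were chosen with results of these data known, no p is given for their sum. The p-values below are for the single copies, which were chosen in the same way and carry the same limit. In the second deposited table the ratios of the summed level were 0.882, 0.830 and 0.776 at 200 ppb and 0.796 and 0.882 at 800 ppb, all below 1 as in the count files.

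**Figure D2:**
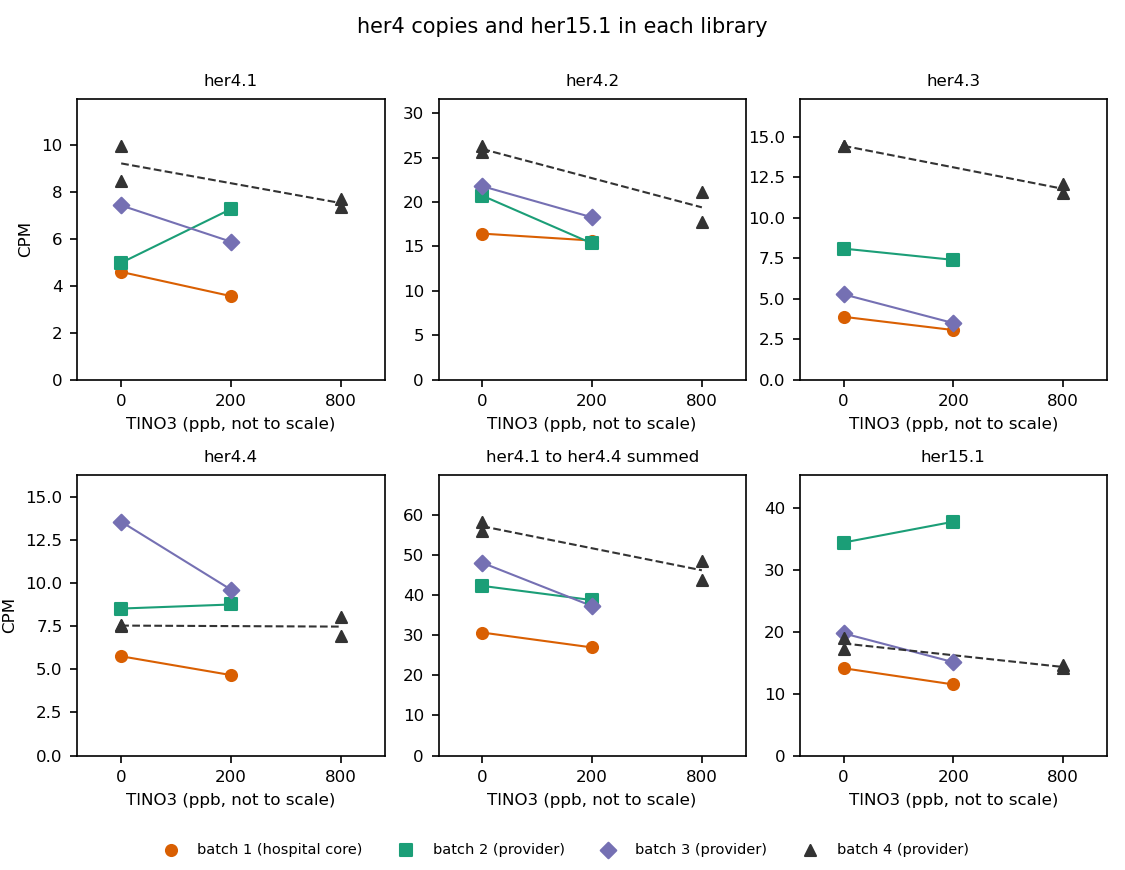
CPM of the her4 copies, their sum and her15.1 in each of the 10 libraries by TlNO3 dose (ppb). Colours and shapes mark the library batch, solid lines join same-numbered libraries and dashed lines the means of batch 4; the exposed end of every line is the lower one for the summed her4 level, while the 0 ppb libraries range from 30.6 to 58.3 CPM.

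Among the copies, her4.2 had the smallest p at either dose. It stood at 15.7, 15.3 and 18.3 CPM in 200 ppb replicates 1 to 3, against 16.4, 20.7 and 21.8 CPM in the same-numbered 0 ppb libraries. The 800 ppb libraries had 17.7 and 21.1 CPM, against 26.4 and 25.6 CPM in 0 ppb replicates 4 and 5. Each exposed library was thus below its batch's 0 ppb libraries, with log2 fold changes of -0.24 ± 0.11 at 200 ppb (SE; edgeR, batch term, unadjusted p = 0.039, adjusted p = 1.0) and -0.42 ± 0.13 at 800 ppb (unadjusted p = 0.00682, adjusted p = 0.428).

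The level of her4.3 was 3.05, 7.39 and 3.48 CPM in the 200 ppb libraries, against 3.87, 8.08 and 5.26 CPM in 0 ppb replicates 1 to 3. The 800 ppb libraries had 11.5 and 12.1 CPM, against 14.4 CPM in each of 0 ppb replicates 4 and 5. Its values again separated within each batch, although its levels in batch 4 were higher at either dose than in all other libraries. Its log2 fold change was -0.33 ± 0.15 at 200 ppb (SE; edgeR, batch term, unadjusted p = 0.0456, adjusted p = 1.0) and -0.29 ± 0.17 at 800 ppb (adjusted p = 0.763); with the site term the value at 800 ppb was 0.22 ± 0.39, on the other side of 0. The size at 200 ppb depended on the model: it was -0.77 ± 0.36 with the site term (edgeR, adjusted p = 1.0), -0.99 for dose only, and -0.56 (batch) and -0.90 (site) in the second table. The site value was -0.44 without 200 ppb replicate 3, and -1.05 without 200 ppb replicate 2 was the other end of its range when each library was left out.

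The remaining copies did not separate in every batch. The level of her4.1 was 3.55, 7.26 and 5.87 CPM at 200 ppb, against 4.58, 4.97 and 7.42 CPM in 0 ppb replicates 1 to 3, lower in 2 of 3 pairs. In the 800 ppb libraries it was 7.71 and 7.34 CPM, against 9.96 and 8.45 CPM in 0 ppb replicates 4 and 5. For her4.4 the 200 ppb libraries had 4.67, 8.75 and 9.62 CPM, against 5.75, 8.52 and 13.6 CPM at 0 ppb, and the 800 ppb libraries 6.93 and 8.01 CPM, against 7.52 and 7.55 CPM. The 800 ppb and 0 ppb values of her4.4 overlapped, and its log2 fold changes were -0.26 ± 0.15 at 200 ppb and -0.02 ± 0.20 at 800 ppb (SE; edgeR, batch term, adjusted p = 1.0 and 0.997). Those of her4.1 were -0.07 ± 0.19 and -0.29 ± 0.23 (adjusted p = 1.0 and 0.838).

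Of the other Notch-responsive repressors, her15.1 (ENSDARG00000054562), also a HES5 relative, overlaps flnba in that annotation and was lower in the exposed libraries of 3 of the 4 batches. It had 11.5 and 37.8 CPM in 200 ppb replicates 1 and 2, against 14.1 and 34.4 CPM in the same-numbered 0 ppb libraries, and replicate 3 at 200 ppb held 0.764 of the 19.8 CPM of replicate 3 at 0 ppb. At 800 ppb it had 14.6 and 14.1 CPM, against 17.2 and 19.0 CPM in 0 ppb replicates 4 and 5. Batch 2 stood apart, both of its libraries being above all 8 others, and it was the batch in which the exposed library was the higher one. The log2 fold change at 800 ppb was -0.34 ± 0.15 (SE; edgeR, batch term, unadjusted p = 0.0398, adjusted p = 0.663).

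Both hey genes encode repressors of the same family with roles in vessels and heart as well as in the nervous system. The level of hey1 was 53.9, 34.5 and 49.7 CPM at 200 ppb, against 55.8, 36.3 and 56.2 CPM in the paired 0 ppb libraries. Both 800 ppb libraries, at 31.7 and 31.3 CPM, lay below the 36.1 and 33.4 CPM of 0 ppb replicates 4 and 5. The exposed library was lower in each batch, with ratios of 0.965, 0.950 and 0.884 at 200 ppb. The level of hey2 ran from 4.78 to 7.45 CPM at 200 ppb and from 7.28 to 9.02 CPM at 800 ppb, against 6.34 to 8.95 CPM at 0 ppb, so its groups overlapped.

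The 3 receptor rows were nearly flat across dose. For notch3 (ENSDARG00000052139) the 200 ppb libraries had 577, 328 and 226 CPM, against 552, 326 and 224 CPM in the same-numbered 0 ppb libraries. The 800 ppb libraries had 231 and 296 CPM, against 231 and 293 CPM in 0 ppb replicates 4 and 5. The ratios of 200 over 0 ppb were 1.044, 1.005 and 1.006, while the hospital core's libraries were well above all those of the provider. The NOTCH1 rows ENSDARG00000052094 and ENSDARG00000103554 had ratios of 200 over 0 ppb of 0.939 to 1.102 and 0.985 to 1.01 over the 3 pairs. The Delta ligand deltaB (dlb, ENSDARG00000004232) had ratios of 0.964 to 1.01.

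The rest of the pathway was read from a list of other Notch genes: ligands, the fringe glycosyltransferases that tune receptor binding, the proteases that cut the receptor, the RBPJ and mastermind partners of its intracellular part, and further her and hes genes. Of the 38 measured, 0 were called at either dose in the site or the batch model (edgeR, adjusted p under 0.05). At an unadjusted p under 0.05 the site model gave 1 gene at either dose, 2.63% of the list. The shares of all genes were 0.575% at 200 ppb and 4.76% at 800 ppb. The batch model gave 0 at 200 ppb (1.1% of all genes) and 6 at 800 ppb (15.8%, against 7.32%). With the batch term 26 of 38 were below 0 at 200 ppb (50.6% of all genes) and 18 of 38 at 800 ppb (49.5%). The medians were -0.03 and 0.02. The gene with the smallest p at 800 ppb was heyl, another hairy-related repressor, at -0.68 ± 0.24 (SE; edgeR, batch term, unadjusted p = 0.0124, adjusted p = 0.515). Next came her8a at -0.40 ± 0.14 and HES6, which promotes neuronal differentiation, at -0.28 ± 0.11 (adjusted p = 0.523 and 0.618). Proneural genes are the differentiation factors that her repressors hold down. Of 9 measured, the batch model put 7 below 0 at 200 ppb (50.6% of all genes) and 5 at 800 ppb (49.5%). The medians were -0.04 at either dose. The site model put 8 below 0 at 200 ppb (50.9% of all genes) and 2 at 800 ppb (52.0%), with medians of -0.16 and 0.12. Either model gave 0 calls and 0 genes at an unadjusted p under 0.05 at either dose (edgeR).

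Human-style symbols stood in for some of the names without a row, and were read apart from the set. The rows HES1 and HES4 may be her6 and her9 under human-style symbols. Their log2 fold changes were -0.07 and -0.08 at 200 ppb in the batch model. Of 7 such rows tested, 0 were called at either dose in either model, where at most 0.311% of all genes were. At an unadjusted p under 0.05 there were 0 as well, where 0.575% to 7.32% of all genes passed (edgeR).

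The 18 radial glia rows also gave no call. With the batch term 11 of 18 were below 0 at 200 ppb (50.6% of all genes) and 9 of 18 at 800 ppb (49.5%). The medians were -0.02 and 0.01. The intermediate filament gene gfap (ENSDARG00000025301), the standard marker of fish radial glia, had 238, 284 and 259 CPM in the 200 ppb libraries, against 256, 300 and 295 CPM in 0 ppb replicates 1 to 3. The 800 ppb libraries had 291 and 279 CPM, against 325 and 300.3 CPM in 0 ppb replicates 4 and 5. Each exposed library was below the 0 ppb libraries of its batch. The size was small, with ratios of 0.931, 0.946 and 0.879 in the pairs and log2 fold changes of -0.12 ± 0.06 at 200 ppb (SE; edgeR, batch term, unadjusted p = 0.0512, adjusted p = 1.0) and -0.13 ± 0.07 at 800 ppb (adjusted p = 0.737).

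The brain fatty-acid binding protein row FABP7 ENSDARG00000007697, a marker of radial glia, had 229, 780 and 566 CPM in the 200 ppb libraries, against 262, 725 and 624.6 CPM at 0 ppb. The 800 ppb libraries had 426 and 429 CPM, against 529 and 477 CPM in 0 ppb replicates 4 and 5. The 800 ppb values were below those of their batch and the 200 ppb libraries were on either side of theirs. Its log2 fold change at 800 ppb was -0.23 ± 0.08 (SE; edgeR, batch term, unadjusted p = 0.0113, adjusted p = 0.503), and -0.50 ± 0.19 with the site term (adjusted p = 0.93).

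The glutamate transporter row SLC1A3 ENSDARG00000043148 had fold changes on opposite sides of 0 at the 2 doses. It had 46.1, 54.1 and 48.0 CPM at 200 ppb, against 40.1, 44.4 and 44.7 CPM, and was higher in 3 of 3 pairs. In the 800 ppb libraries it had 29.1 and 38.0 CPM, against 36.6 and 43.1 CPM in 0 ppb replicates 4 and 5, where the ranges overlapped. The log2 fold changes were 0.20 ± 0.09 and -0.25 ± 0.13 (SE; edgeR, batch term, adjusted p = 1.0 and 0.702), and the second SLC1A3 row, ENSDARG00000104431, had -0.04 and 0.13. For ENSDARG00000043148 the contrast of 800 ppb with 200 ppb was -0.45 ± 0.16 with the batch term and -0.59 ± 0.16 with the site term. Neither was called (edgeR, adjusted p = 0.999 and 0.56). The calcium-binding protein gene s100b had 2.499, 4.28 and 5.23 CPM at 200 ppb, against 3.25, 4.35 and 6.95 CPM, and 2.802 and 4.22 CPM at 800 ppb, against 5.07 and 3.92 CPM. It was thus lower in 3 of 3 pairs, and its 800 ppb values overlapped those of 0 ppb.

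Most of the other radial glia rows lay close to their 0 ppb libraries. GLUL, glutamine synthetase, had ratios of 200 over 0 ppb between 0.928 and 1.01 in its 2 rows, and the SLC1A2 row ENSDARG00000102453, a glutamate transporter, between 0.936 and 1.104. The stem cell factor sox2 had ratios of 0.958 to 1.105 and sox3 of 0.934 to 1.124. At 800 ppb sox2 had 100.4 and 99.8 CPM, against 96.0 and 95.1 CPM in 0 ppb replicates 4 and 5. SLC1A3 ENSDARG00000104431 had 38.7 and 41.2 CPM, against 34.4 and 38.6 CPM. These were the 2 radial glia rows with both 800 ppb libraries above both 0 ppb libraries of their batch, and 3 rows lay below. The SOX9 row ENSDARG00000043923, a glial fate factor, was lower in 3 of 3 pairs, at 120, 86.9 and 42.3 CPM in 200 ppb libraries, against 127, 89.4 and 53.3 CPM at 0 ppb, whereas its 800 ppb values of 92.2 and 81.5 CPM were close to the 92.6 and 82.5 CPM of 0 ppb replicates 4 and 5. The SOX9 row ENSDARG00000003293 had ratios of 0.962 to 1.09 and the VIM row ENSDARG00000010008, an intermediate filament gene, of 0.910 to 0.991. The second FABP7 row, ENSDARG00000034650, was low and overlapped, at 3.57 and 1.85 CPM at 800 ppb, against 1.69 and 2.34 CPM in 0 ppb replicates 4 and 5, and the SLC1A2 row ENSDARG00000052138 did not pass 1.48 CPM in any library. The VIM row ENSDARG00000044501, low at 2.09 to 4.64 CPM in 0 ppb libraries, was the only one of the 45 more than 0.3 above 0 at 200 ppb (0.38 ± 0.21), and lay at -0.56 ± 0.29 at 800 ppb (SE; edgeR, batch term, adjusted p = 1.0 and 0.722).

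In the oligodendrocyte lineage the 11 rows held 0 calls. In the batch model 8 of 11 were below 0 at 200 ppb (50.6% of all genes) and 7 of 11 at 800 ppb (49.5%). Their medians were -0.04 and -0.15. With the site term the medians were -0.15 at 200 ppb and -0.002 at 800 ppb, with 8 and 6 of 11 rows below 0. Transcription factors that specify the lineage came first: olig2 had ratios of 0.954 to 1.01 in the 200 ppb pairs, and 30.0 and 32.9 CPM at 800 ppb, against 31.1 and 37.2 CPM in 0 ppb replicates 4 and 5. The factor sox10, which marks oligodendrocytes and neural crest alike, had 40.2, 26.9 and 32.7 CPM at 200 ppb, against 40.9, 35.0 and 31.8 CPM. Both 800 ppb libraries, with 36.2 and 36.9 CPM, lay below the 41.5 and 41.1 CPM of 0 ppb replicates 4 and 5. It was below its controls in 2 of 3 pairs and in both 800 ppb libraries. Its log2 fold change at 800 ppb was -0.18 ± 0.11 with the batch term and -0.002 ± 0.15 with the site term (SE; edgeR, adjusted p = 0.775 and 0.998). At 200 ppb it was -0.11 ± 0.09 with the batch term and -0.24 ± 0.13 with the site term.

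Among genes of the myelin sheath itself, mbpb and plp1a varied more over the 0 ppb libraries of all batches than between doses within a batch. The myelin basic protein gene mbpb had 43.4, 43.5 and 74.2 CPM at 200 ppb, against 47.3, 44.1 and 81.4 CPM at 0 ppb. It had 77.1 and 67.04 CPM at 800 ppb, against 75.3 and 67.3 CPM in 0 ppb replicates 4 and 5. For mbpb, batches 1 and 2 spanned 43.4 to 47.3 CPM and batches 3 and 4 67.04 to 81.4 CPM over all doses. The proteolipid gene plp1a had 152, 58.1 and 72.3 CPM at 200 ppb, against 155, 48.5 and 75.9 CPM, and 70.3 and 107 CPM at 800 ppb, against 80.5 and 115 CPM, so that its 0 ppb libraries spanned 3.21-fold and its doses overlapped. Its paralog plp1b was low, at 1.03 to 2.39 CPM in 200 ppb libraries, and was lower than 0 ppb in 3 of 3 pairs but higher in both 800 ppb libraries (3.78 and 3.46 CPM, against 3.21 and 2.19 CPM). For mag, a myelin adhesion protein, the ratios were 0.883 to 1.125.

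**Figure D3:**
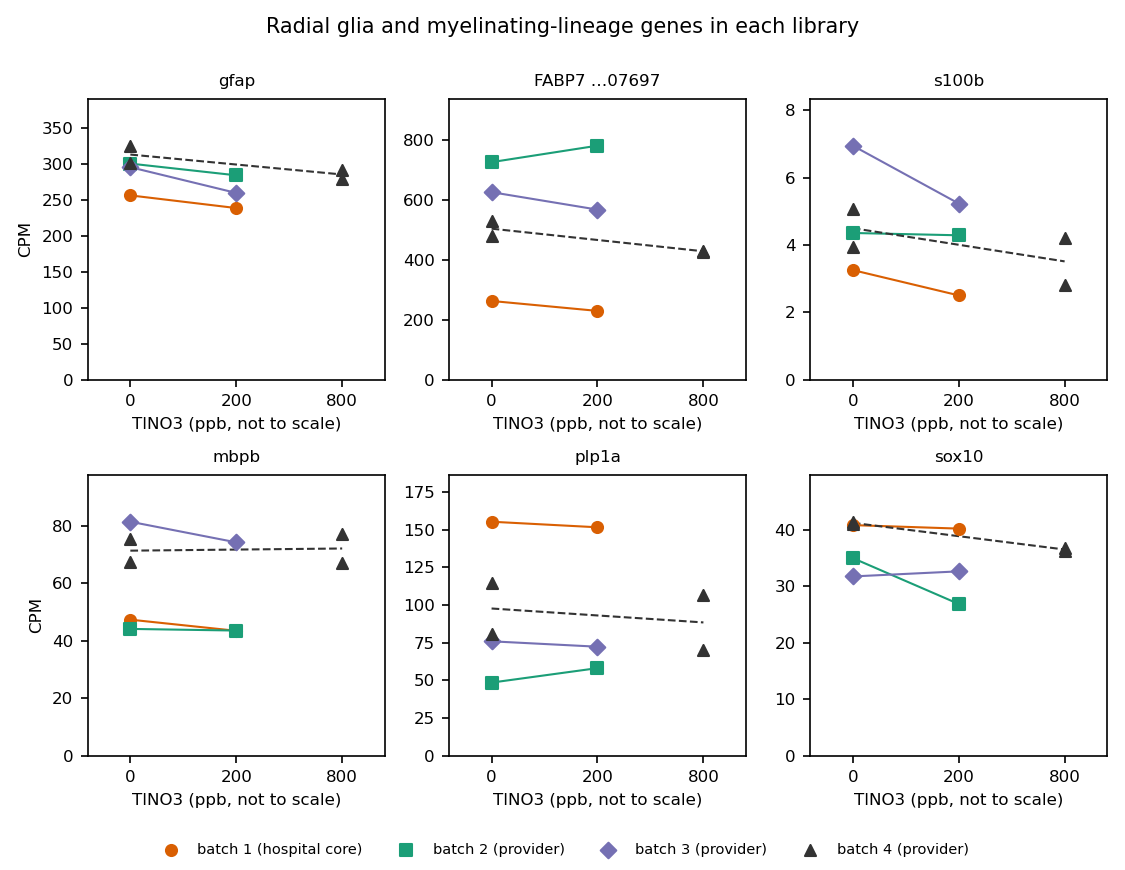
CPM of radial glia genes (gfap, FABP7 ENSDARG00000007697, s100b), myelin genes (mbpb, plp1a) and sox10 in each library by TlNO3 dose, with batches as colours and shapes. The exposed end of each line is slightly lower for gfap. For mbpb and plp1a the range over all 0 ppb libraries, which includes batch differences, exceeds the difference between the ends of any line.

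Rows with few reads could not be resolved at this depth. The SOX8 row ENSDARG00000037782 had the lowest log2 fold change of the set at 800 ppb, -1.62 ± 0.59 (SE; edgeR, batch term, unadjusted p = 0.0146, adjusted p = 0.536). It rests on 4 and 5 reads in the 800 ppb libraries, against 13 and 14 reads in 0 ppb replicates 4 and 5. In the second deposited table, with the same batch term, the value was -0.71 ± 0.41 (limma, adjusted p = 0.692). At 200 ppb the ratios to the same-numbered 0 ppb libraries were 1.08, 1.22 and 0.239, the last from 1 read in 200 ppb replicate 3, against 4 reads in 0 ppb replicate 3. The second SOX8 row, ENSDARG00000105301, was on the other side, at 2.24 and 2.36 CPM at 800 ppb, against 2.03 and 1.36 CPM in 0 ppb replicates 4 and 5. The other myelin basic protein gene, mbpa, ran from 0.435 to 3.37 CPM over the 0 ppb libraries, with 3.29 and 0.679 CPM in 0 ppb replicates 4 and 5 of a single batch. The lineage factor olig1 was lower in 1 of 3 pairs, at 2.19, 3.97 and 3.36 CPM at 200 ppb, against 2.14, 2.86 and 6.14 CPM at 0 ppb. The claudin gene cldnk, of the oligodendrocyte sheath, had 2.38 and 1.52 CPM at 800 ppb, against 3.21 and 1.96 CPM.

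Of the 4 Schwann cell and neural crest rows, 0 were called. The neuregulin receptor erbb3b, which Schwann cell precursors need for migration along axons, was higher in 3 of 3 pairs, with ratios of 1.01 to 1.09, and had 11.4 and 9.78 CPM at 800 ppb, against 13.1 and 10.8 CPM. The crest factor foxd3 had 32.9 and 33.3 CPM at 800 ppb, against 36.2 and 34.3 CPM in 0 ppb replicates 4 and 5, and ratios of 0.878 to 1.09 at 200 ppb. The peripheral myelin gene mpz and the myelination factor egr2b were at most 5.49 CPM in any library, and their groups overlapped at either dose. Lists of further radial glia (15 measured), oligodendrocyte (13) and Schwann or crest genes (13) held 0 calls at either dose in the site and batch models (edgeR), with medians of -0.01, 0.03 and -0.05 at 200 ppb and 0.01, 0.02 and 0.03 at 800 ppb in the batch model. At an unadjusted p under 0.05 the batch model gave 0 genes in these lists at 200 ppb (1.1% of all genes). At 800 ppb it gave 2, 0 and 2 (13.3%, 0% and 15.4%, against 7.32% of all genes). PMP22, a peripheral myelin protein, had the smallest p among the crest genes at 800 ppb (-0.22 ± 0.07, edgeR, batch term, adjusted p = 0.451).

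Markers of other cell types that share the embryo were read beside these values. In the batch model 0 of 21 neuronal, 6 endothelial, 6 red cell, 9 microglia and macrophage, 8 cycling-cell and 8 fast muscle genes were called at either dose (edgeR). At an unadjusted p under 0.05 the batch model gave 2 red cell genes at 200 ppb (33.3%, against 1.1% of all genes). At 800 ppb it gave 2 neuronal, 2 cycling-cell and 1 muscle gene (9.52%, 25.0% and 12.5%, against 7.32% of all genes). Medians at 800 ppb were 0.01 for neurons and -0.11 for cycling cells, where 7 of 8 genes were below 0 (49.5% of all genes). Summed cycling-cell markers were at 1217 and 1354 CPM in the 800 ppb libraries, against 1380 and 1382 CPM in 0 ppb replicates 4 and 5, and at 1630, 1454 and 1062 CPM in the 200 ppb libraries, against 1661, 1360 and 1068 CPM. Summed red cell markers were at 951, 3241 and 3228 CPM in the 200 ppb libraries, against 1044, 3335 and 3595 CPM, and at 2438 and 2297 CPM in the 800 ppb libraries, against 2614 and 2427 CPM. The exposed library was thus the lower in each 200 ppb pair, as for her4. The part of either list in the her4, gfap and FABP7 values was not tested. Neuronal markers summed to 2887 and 2963 CPM at 800 ppb, against 2928 and 2985 CPM.

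More rows differed by the site of library construction than by dose. Between the hospital core's 2 libraries and the provider's 8, 21 of 45 rows differed (edgeR, adjusted p under 0.05), where 33.9% of all genes did, with 8 higher and 13 lower at the core. All 3 receptor rows were higher at the core. NOTCH1 ENSDARG00000052094 had 213 and 235 CPM there, against 42.1 to 91.4 CPM in the provider libraries, a log2 fold change of 1.83 ± 0.25 (SE; adjusted p = 0.000481). The log2 fold changes of NOTCH1 ENSDARG00000103554 and notch3 were 1.09 ± 0.17 and 1.05 ± 0.18 (adjusted p = 0.000812 and 0.00141). In the count files her4.1, her4.3 and her4.4 were lower at the core (edgeR, adjusted p = 0.0300, 0.0495 and 0.0262), and of these her4.1 was also called in the second table. FABP7 ENSDARG00000007697 was likewise lower, at 262 and 229 CPM against 426 to 780 CPM. The site and the embryos sent there cannot be told apart, since the labels name no sample prepared at both.

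The value furthest apart was that of id1 (ENSDARG00000040764), an inhibitor of differentiation controlled mainly by BMP signalling. In the count files it had 13.7 and 11.2 CPM in the hospital core's 0 and 200 ppb libraries, against 166 to 288 CPM in the provider's 8, a log2 fold change of -4.30 ± 0.22 (edgeR, adjusted p = 1.57e-06). The second deposited table did not show this gap. There, with the authors' log2 values taken back to CPM, id1 stood at 14.5 and 11.9 CPM in the core's libraries, against 8.12 to 39.8 CPM in the provider's, a log2 fold change of -0.46 (limma, adjusted p = 0.552). The provider's values were 9.10-fold higher in the count files than in that table for the same libraries.

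The same comparison of the 2 deposited count sets was made for all 44 rows held by both. In the core's libraries 0 of 44 differed by more than 0.1 on the log2 scale. In the provider's libraries 3 of 44 (6.82%) differed by more than 2-fold, where 1.85% of all 18960 shared genes did: id1, her4.3 (2.67-fold higher in the count files) and VIM ENSDARG00000010008 (2.47-fold higher). In the second table her4.3 was at 3.14 and 1.11 CPM in 200 ppb replicates 2 and 3, against 4.83 and 1.82 CPM in 0 ppb replicates 2 and 3. It was at 4.95 and 4.25 CPM at 800 ppb, against 5.68 and 5.26 CPM in 0 ppb replicates 4 and 5. The level of her4.3 thus depended on the count set, whereas the exposed libraries were the lower in either set. Fewer rows differed between sites in the second table, 16 of 44 where 30.7% of its genes did, and 15 of them differed in the same direction in the count files. The receptor rows were among these. The 6 rows called in the count files and not in the second table were her4.3, her4.4, id1, VIM ENSDARG00000010008, sox2 and foxd3. For her4.3 the sign turned, with a log2 fold change of 0.40 in the second table and -1.16 in the count files, and for VIM ENSDARG00000010008 it was 0.36 in the second table and -0.92 in the count files.

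**Figure D4:**
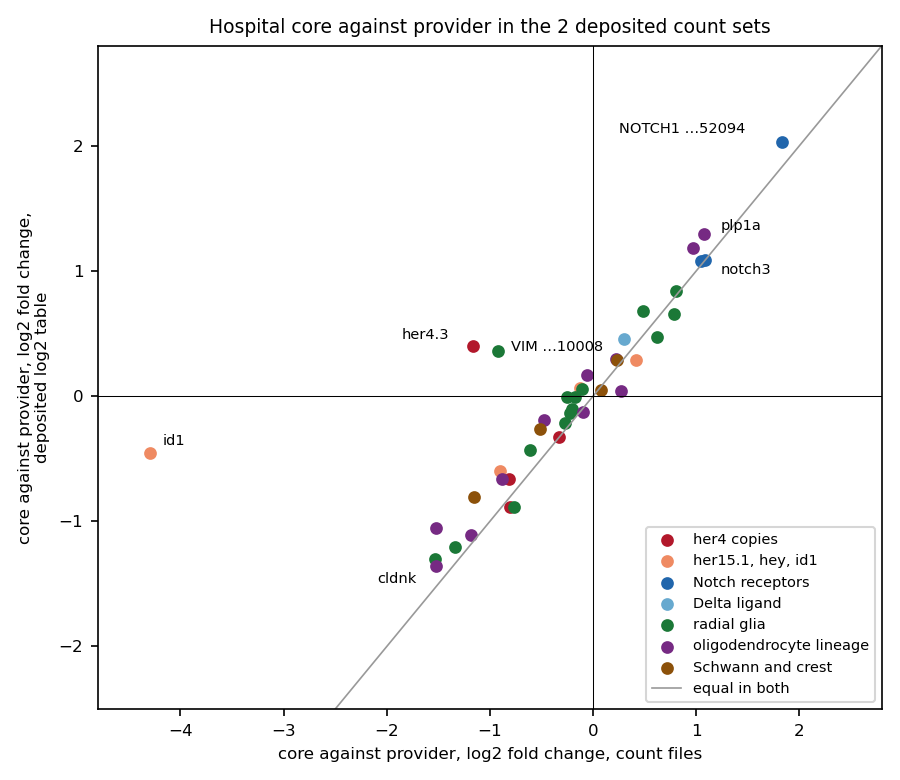
Log2 fold change of the hospital core's 2 libraries against the provider's 8 for 42 gene rows, from the count files (x axis) and from the deposited log2 table (y axis); colours mark the role and the grey line marks equal values. Most rows lie near the line, the NOTCH1 row ENSDARG00000052094 far above 0 on each axis, and id1, her4.3 and a VIM row lie well off it.

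For id1 the dose comparison was also read in both sources. In the count files it had 11.2, 257 and 270 CPM at 200 ppb, against 13.7, 249.9 and 288 CPM, and 188 and 166 CPM at 800 ppb, against 222 and 181 CPM. The log2 fold change at 800 ppb was -0.19 ± 0.10 with the batch term and -0.45 ± 0.18 with the site term (SE; edgeR, adjusted p = 0.746 and 0.93). In the second table the 800 ppb values were 32.5 and 22.1 CPM, against 39.8 and 27.8 CPM. The 2 doses' values overlapped those of 0 ppb in either source.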

How the data were processed

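RNA sequencing of 10 libraries from whole embryos was used. Groups came from the sample titles and the site from the labels' protocols. For every library the authors deposited a file of whole-number counts of reads by Ensembl gene, and for the series a table of 18963 genes in log2 CPM. GRCz11 (build), STAR, cutadapt, FastQC and edgeR are named in the submitters' processing notes. The counter and use of strand were not given in the sources used here, so overlapping genes on opposite strands cannot be told apart.

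Counts of the 32057 genes shared by all files were fitted with edgeR 4.0.16 (R 4.3.3) over all 10 libraries: TMM scaling, filterByExpr by dose, site and dose as terms, quasi-likelihood F-test (two-sided), Benjamini-Hochberg adjustment over 20867 genes, threshold 0.05. The fit with library batch in place of site was an alternative. Batches of the provider's libraries came from clustering the log ratios between the count files and the log2 table over 13286 genes. The number of these clusters was set to 3, with the batches already known from an earlier look at these data. The correlation was 0.917 to 0.959 within and 0.786 to 0.847 between them, and as it also defined the clusters it is no separate check. Standard errors of log2 fold changes had a median of 0.203 (site) and 0.138 (batch) at 200 ppb, and 0.240 and 0.185 at 800 ppb. The log2 table was fitted with limma 3.58.1 (limma-trend). DESeq2 1.42.0, RLE factors, no filter, dose only, replicate blocks and leaving out each library were further alternatives. The edgeR fits were tested on simulated data.

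The replicate number paired 0 and 200 ppb libraries: deviations from the group mean of same-numbered libraries correlated at 0.947, 0.780 and 0.863. Fold changes with p-values are given for her4.1 to her4.4, gfap, sox10, the 5 members with the smallest p per comparison and model, and rows called between sites; from other lists, for up to 3 genes with the smallest p. The contrast of sites and the use of the log2 table were added after the data were seen. The members and lists were chosen with earlier results of these data known. Symbols came from a gene ID table: 22 names matched as written, 4 by ID and 12 after the paralog letter was dropped. Of 159 entries in the other lists, 13 did not match. Of the 45 rows, 2 entered the tests and counts but are not reported here.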

Additional observations from a re-analysis of the deposited data

Results flagged for a closer look

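Among the 5 libraries of 0 ppb, 1 library lay far from the other 4 (Dixon's test at 95%) for 4 of the 45 gene rows, and chance flags about 1 in 20 groups. For her15.1, replicate 2 was highest at 34.4 CPM, and the 200 ppb library of the same batch was high as well. Replicate 1, from the hospital core, was highest for NOTCH1 ENSDARG00000052094 at 213 CPM and for NOTCH1 ENSDARG00000103554 at 230.1 CPM, and lowest for GLUL ENSDARG00000100003 at 183 CPM. The groups of 3 and 2 libraries are too small for this test.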

How the results depend on the processing

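Every alternative left 0 members called at 200 ppb, where at most 0.0288% of all genes were called. All but 1 left 0 at 800 ppb, and of these the fits with both 800 ppb libraries called at most 0.343% of all genes. The exception was the replicate block with the site term over all 10 libraries, which called 14 members at 800 ppb against 0 ppb and 17 at 800 ppb against 200 ppb. It called 31.6% and 32.3% of all genes, had few residual degrees of freedom, and paired the 800 ppb libraries with 0 ppb libraries of other batches; their deviations correlated at -0.198 and 0.04 for the same number. Under that block the log2 fold change at 800 ppb was 0.15 for summed her4, 0.22 for her4.1, 0.12 for her4.2 and 0.20 for sox10, each on the other side of 0. The replicate block on 0 and 200 ppb libraries only changed no call. The cause of these changes was not tested.

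Leaving out each library moved the site model's summed her4 between -0.42 and -0.31 at 200 ppb and between -0.20 and -0.05 at 800 ppb. For the sum in the batch model (-0.22 at 200 ppb and -0.31 at 800 ppb) this was not done. Members below 0 in the batch model moved between 26 and 33 of 45 at 200 ppb and between 26 and 31 at 800 ppb. The sign of several single members depended on the model. At 200 ppb her15.1 was 0.08 with the site term, against -0.17 (batch), -0.16 (block with site), -0.16 (block alone) and -0.15 (log2 table, batch). FABP7 ENSDARG00000007697 was 0.09, against -0.0766, -0.0761, -0.0727 and -0.0652 in the same order. The value of id1 was 0.05, against -0.0968, -0.0833, -0.0783 and -0.0793, with -0.0912 for dose only and -0.50 for the log2 table with the site term. In that last fit her4.4 was 0.0088 and SOX8 ENSDARG00000037782 -0.0828. At 800 ppb her4.1 was 0.10 for dose only, her4.3 -0.29 (batch) and -0.25 (log2 table, batch), and, in the log2 table with the site term, id1 0.32 and sox10 0.0817.

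Signs also turned when single libraries were left out of the site model. At 200 ppb the ranges were -0.17 to 0.0632 for her4.4, -0.47 to 0.36 for her15.1, -0.0366 to 0.17 for id1, -0.11 to 0.20 for FABP7 ENSDARG00000007697, -0.22 to 0.63 for VIM ENSDARG00000044501 and -1.15 to 0.70 for SOX8 ENSDARG00000037782. At 800 ppb they were -0.19 to 0.0827 for her4.1 and -0.0551 to 0.0545 for sox10. Depth limits rows such as SOX8 ENSDARG00000037782, with 1 to 121 reads per library.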
